A study of Mus musculus with 16 samples.

Results

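Fibroblast growth factor (FGF) signalling in the embryonic face was followed here through 10 genes, named for their role in the pathway and chosen with earlier results of these data known: the ligands *Fgf8* and *Fgf10*, the receptors *Fgfr1* and *Fgfr2*, the Sprouty genes *Spry1*, *Spry2* and *Spry4*, the ETS factors *Etv4* and *Etv5*, and the phosphatase *Dusp6*. All 10 were present among the 35639 genes with a TPM value and the 15451 genes with a gene value, and all 10 passed the filter on low values in every comparison. The libraries were polyA-selected RNA from the frontonasal prominence (FNP, the lateral and medial nasal processes together) and from the mandible; 8 mouse embryos were dissected at E11.5, with 1 library of each tissue from each embryo. Mutants were embryos 3, 4, 5 and 6, of genotype *Srf* flox/flox; *Wnt1-Cre*. Controls were embryos 1 and 7, which were *Srf* flox/+; *Wnt1-Cre*, embryo 2, which was *Srf* flox/flox, and embryo 8, which was *Srf* flox/+. Every embryo therefore carried at least 1 floxed *Srf* allele, and 2 of the 4 controls also carried the Cre transgene and so have 1 working *Srf* allele in neural crest cells. *Wnt1-Cre* acts in the neural crest, the source of most facial mesenchyme, so that ectoderm, endothelium and muscle of the same prominences keep *Srf*. There were 2 litters, the first giving embryos 1 to 5 and the second embryos 6 to 8.

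FGF ligands are secreted proteins that bind receptor tyrosine kinases together with heparan sulphate and drive the RAS-ERK kinase cascade. Sprouty proteins and DUSP6 are made in response to ERK activity and damp the same cascade, the former near the receptor and the latter by removing phosphate from ERK, while ETV4 and ETV5 are transcription factors that rise with FGF signalling and carry part of its output to target genes. In the developing face FGF8 comes from the ectoderm and supports the survival and patterning of the neural crest mesenchyme beneath it. SRF is a transcription factor that one class of cofactors, themselves ETS proteins, couples to ERK activity, and another class, the MRTFs, couples to actin.

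Levels are in TPM as the authors scaled them, a unit per transcript length that allows genes to be compared, and differences as log2 differences of the authors' scaled gene values, fitted by limma with litter, tissue and genotype as terms over 16 libraries. Totals of the gene values were 10.2 M to 11.2 M per library. Reads behind single values are not known from the scaled values, so the error given is the spread between libraries. The fits over 16 libraries have no embryo term and take the FNP and mandible libraries of an embryo as independent. *Srf* itself stood at 10.8 to 14.7 TPM in the 8 mutant libraries and 34.4 to 75.2 TPM in the 8 control libraries, with no overlap. The tissue labels were borne out by markers, since the mandible had the higher level of all 7 genes of mandibular mesenchyme identity and the FNP of all 6 of frontonasal identity.

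The members spanned a wide range of levels. In the FNP (mean ± SD, n = 8) *Fgfr1* and *Dusp6* stood highest, at 136 ± 10.9 and 136 ± 32.5 TPM, and did not differ beyond their spread. *Etv4* (69.0 ± 7.55), *Fgfr2* (60.6 ± 8.15) and *Etv5* (60.4 ± 7.31) followed within 1 SD or little more of each other, then *Spry2* (46.5 ± 7.27), *Fgf8* (31.1 ± 9.41), *Spry1* (26.2 ± 2.94), *Spry4* (15.5 ± 1.16) and *Fgf10* (6.18 ± 1.86). In the mandible the receptors led, with *Fgfr1* at 145 ± 10.5 and *Fgfr2* at 82.1 ± 9.38 TPM. *Dusp6* (80.9 ± 9.35) was level with *Fgfr2* within the spread, and *Etv4* (41.2 ± 3.88), *Etv5* (34.6 ± 3.20), *Spry2* (25.7 ± 2.81) and *Spry1* (24.3 ± 1.5) came next. The ligands and *Spry4* were lowest there, at 15.9 ± 6.96 TPM for *Fgf8*, 9.12 ± 1.02 for *Fgf10* and 7.28 ± 1.03 for *Spry4*.

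**Figure D1:**
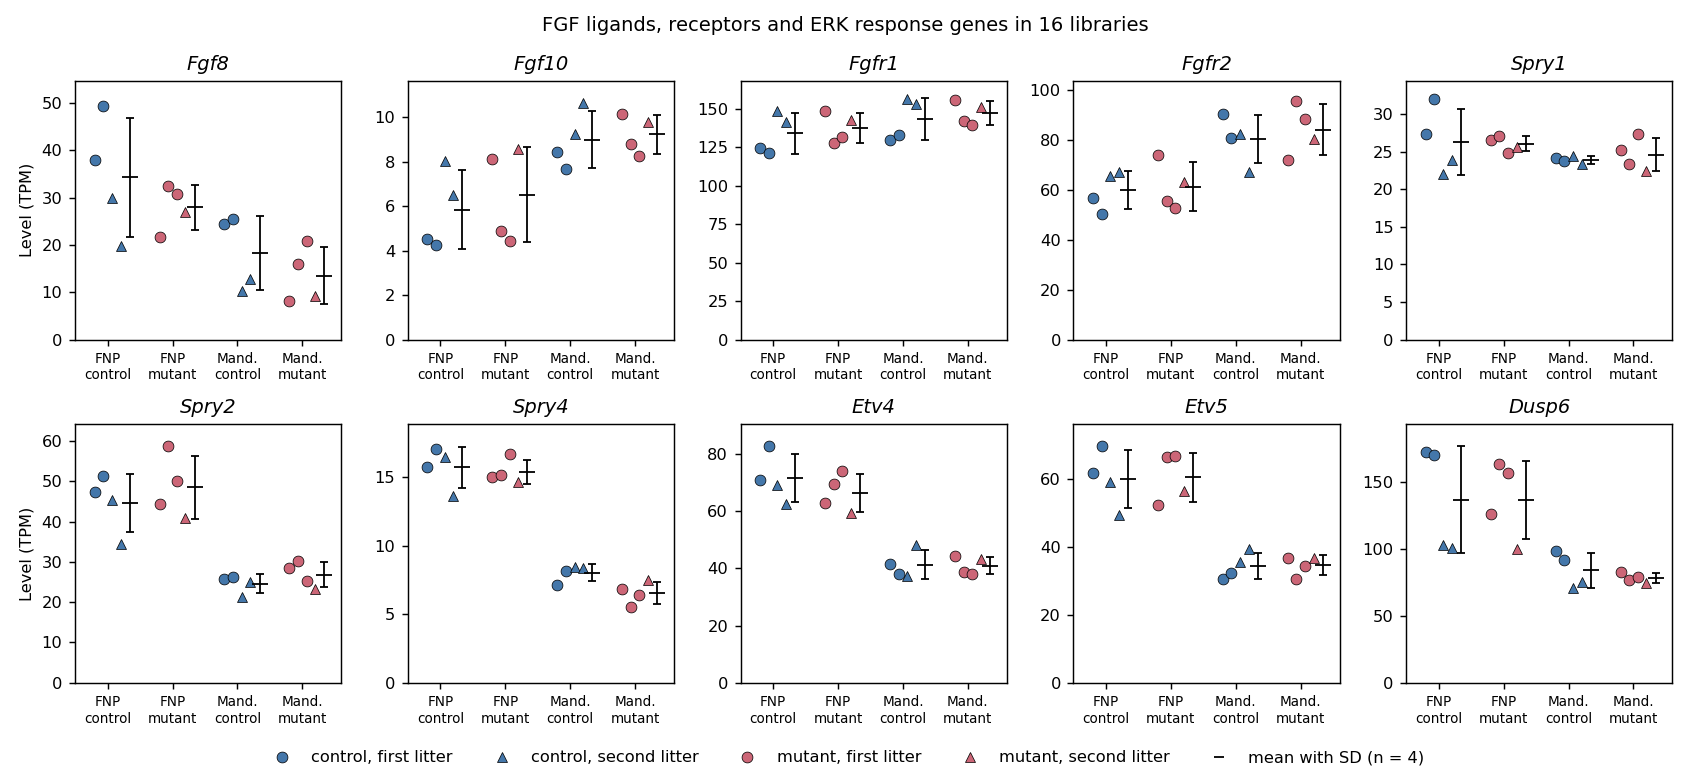
Level of each of the 10 genes (TPM, axis from 0) in the 16 libraries, by tissue and genotype; circles are embryos of the first litter and triangles of the second, and bars give the mean with SD (n = 4). *Spry2*, *Spry4*, *Etv4*, *Etv5* and *Dusp6* are higher in every FNP library than in any mandible library, and control and mutant libraries overlap for all 10 genes.

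The comparison of tissues asked where in the face each arm of the pathway was higher at E11.5. Feedback genes and ETS factors were higher in the FNP, together with *Fgf8*, while the mandible had more *Fgf10* and *Fgfr2*. Of the 10 genes 8 passed the test (limma, Benjamini-Hochberg adjusted p of at most 0.05), 6 with the FNP above and 2 with the mandible above, against 29.7% of all 14630 genes tested (17.8% and 11.9% in those directions). The median log2 difference of the 10 genes, mandible minus FNP, was -0.72, and that of all genes tested was 0.00. *Fgfr1* and *Spry1* did not pass.

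*Fgf8* lies on chromosome 19, between 45736798 and 45742915 in the GRCm38 build used for all positions here, and stood at 19.8 to 49.5 TPM in the 8 FNP libraries (median 30.3) and at 8.08 to 25.6 TPM in the 8 mandible libraries (median 14.4). The ranges overlapped, although within each of the 8 embryos the FNP had the higher level, by 1.47 to 2.94 times. Its log2 difference, mandible minus FNP, was -1.04 (SE 0.188, limma adjusted p = 0.000392). *Fgf10*, a mesenchymal ligand that acts on epithelial receptors, lies on chromosome 13 from 118669791 to 118792115 and went the other way, at 4.26 to 8.59 TPM in the FNP (median 5.70) and 7.65 to 10.6 TPM in the mandible (median 9.04). Every embryo had more *Fgf10* in its mandible, by 1.14 to 1.86 times, and the log2 difference was 0.61 (SE 0.132, limma adjusted p = 0.00180). With the mutants alone the call of *Fgf10* was lost (0.56, adjusted p = 0.137), and with the controls alone it was kept (0.66, adjusted p = 0.0220). An antisense gene, *Gm16263*, shares exon bases with *Fgf10*, and since the strand used in counting is not given in the sources used here, reads of the pair may not have been told apart.

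Of the receptors, *Fgfr2*, on chromosome 7 from 130162451 to 133123350, stood at 50.4 to 74.1 TPM in the FNP (median 60.0) and 67.2 to 95.5 TPM in the mandible (median 81.6). The ranges overlapped, and embryo 3 was the exception among the 8 embryos, with slightly more *Fgfr2* in its FNP (1.03 times). The log2 difference was 0.44 (SE 0.0832, limma adjusted p = 0.000537). *Fgfr1*, on chromosome 8 from 25513654 to 25575718, stood at 122 to 149 TPM in the FNP and 130 to 157 TPM in the mandible. It was higher in the mandible of all 8 embryos, but only by 1.04 to 1.11 times, a log2 difference of 0.10 (95% CI 0.01 to 0.19, limma adjusted p = 0.0763). With the embryo as a fixed block *Fgfr1* was called at the same difference (adjusted p = 0.00625), and with the embryo as a random block it was called too (adjusted p = 0.0476). *Fgfr2* shares exon bases with *Ctbp2* on the same strand and *Fgfr1* with the antisense gene *Gm16159*. The span given for *Fgfr2* is that of the GENCODE annotation on the minus strand. It runs far upstream of the RefSeq start at 130266808.

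The Sprouty genes did not move as a family. *Spry4* showed the largest difference between the tissues of the 10 genes, with 13.6 to 17.0 TPM in the FNP (median 15.4) and 5.54 to 8.44 TPM in the mandible (median 7.29), a log2 difference of -1.10 (SE 0.0717, limma adjusted p = 2.82e-09). *Spry2*, on chromosome 14 from 105891947 to 105896819, stood at 34.4 to 58.6 TPM in the FNP (median 46.3) and 21.2 to 30.1 TPM in the mandible (median 25.5), a log2 difference of -0.84 (SE 0.0644, limma adjusted p = 2.04e-08). For both genes every FNP library lay above every mandible library. *Spry1*, on chromosome 3 from 37639947 to 37644598, stood at 22.0 to 32.0 TPM in the FNP (median 26.2) and 22.4 to 27.4 TPM in the mandible (median 24.0). Its FNP level was the higher in 6 of 8 embryos, and its log2 difference of -0.10 (95% CI -0.21 to 0.01, limma adjusted p = 0.153) did not pass. The unclassified transcript *Gm42922* lies over *Spry1* on the opposite strand.

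The ETS factors and *Dusp6* separated the tissues completely. *Etv4*, on chromosome 11 from 101769742 to 101785371, stood at 59.2 to 83.0 TPM in the FNP (median 69.5) and 37.2 to 48.3 TPM in the mandible (median 40.2), with a log2 difference of -0.73 (SE 0.0720, limma adjusted p = 4.59e-07). *Etv5*, on chromosome 16 from 22381309 to 22439719, stood at 49.4 to 70.0 TPM in the FNP (median 60.6) and 30.5 to 39.4 TPM in the mandible (median 35.1), with a log2 difference of -0.80 (SE 0.0850, limma adjusted p = 1.21e-06). *Dusp6*, on chromosome 10 from 99263231 to 99267489, stood at 99.6 to 172 TPM in the FNP (median 141) and 70.4 to 97.9 TPM in the mandible (median 77.7), with a log2 difference of -0.72 (SE 0.0714, limma adjusted p = 5.22e-07). With *Spry2* and *Spry4*, 5 of the 10 genes had no overlap between the 8 FNP and the 8 mandible libraries, all with the FNP above, against 9.11% of all genes tested in either direction and 6.35% with the FNP above. Within embryos, the ratio of FNP to mandible ranged from 1.26 for *Etv5* to 2.73 for *Spry4*.

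**Figure D2:**
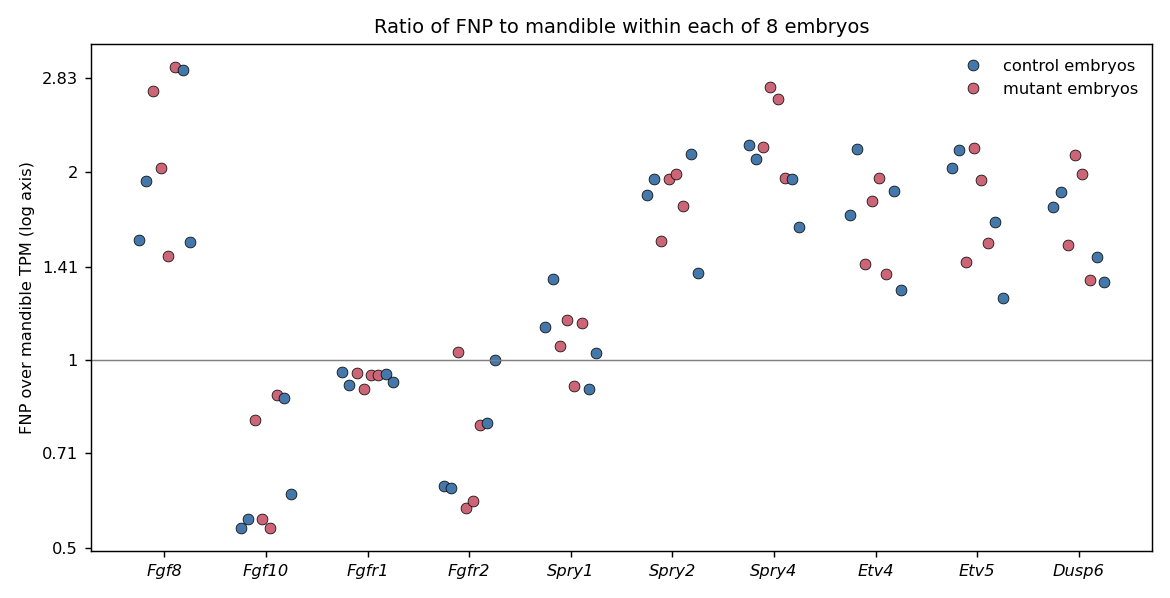
Ratio of the FNP level to the mandible level (TPM over TPM, log axis) for each of the 10 genes within each of 8 embryos, controls in blue and mutants in red. *Fgf8* and the 5 genes *Spry2*, *Spry4*, *Etv4*, *Etv5* and *Dusp6* lie above 1 in all 8 embryos, *Fgf10* and *Fgfr1* below 1 in all 8.

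The sequences before the starts of *Dusp6*, *Spry2* and *Spry1* are shown, the 3 genes followed here whose RefSeq start is also the GENCODE gene start. *Dusp6* and *Spry2* differed between the tissues and *Spry1* did not pass. Each run is the 250 bases before the RefSeq start site in GRCm38.p6, read 5′ to 3′ on the strand of the gene, with each match to GGAAG, a longer form of the core GGAA or GGAT that ETS proteins bind, or to its reverse complement CTTCC in capitals. They lie at chr10:99262981-99263230 for *Dusp6*, at chr14:105896820-105897069 on the minus strand for *Spry2* and at chr3:37639697-37639946 for *Spry1*.
Dusp6: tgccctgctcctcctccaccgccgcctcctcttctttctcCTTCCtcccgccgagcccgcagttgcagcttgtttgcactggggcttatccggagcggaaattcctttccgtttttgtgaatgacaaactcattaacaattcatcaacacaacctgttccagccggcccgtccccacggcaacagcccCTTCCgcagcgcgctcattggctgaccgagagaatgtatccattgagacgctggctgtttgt
Spry2: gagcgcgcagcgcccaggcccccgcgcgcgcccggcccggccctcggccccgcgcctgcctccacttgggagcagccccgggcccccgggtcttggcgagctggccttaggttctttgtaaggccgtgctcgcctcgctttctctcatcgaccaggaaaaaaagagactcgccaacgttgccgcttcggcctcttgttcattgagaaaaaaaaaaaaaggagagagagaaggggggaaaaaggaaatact
Spry1: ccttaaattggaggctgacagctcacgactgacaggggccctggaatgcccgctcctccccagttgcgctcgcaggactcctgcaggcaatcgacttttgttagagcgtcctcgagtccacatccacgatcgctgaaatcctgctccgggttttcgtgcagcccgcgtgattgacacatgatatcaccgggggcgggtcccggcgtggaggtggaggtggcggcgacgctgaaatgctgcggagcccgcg
*Dusp6* held 2 matches, whose first bases lie 210 and 62 bases before the start, and *Spry2* and *Spry1* held none. The core itself, GGAA or GGAT on either strand, had 8 matches in *Dusp6*, 3 in *Spry2* and 3 in *Spry1*, and 97.9% of all windows hold at least 1. RefSeq gave 7 such windows for 6 of the 10 genes, the others being *Fgf10*, *Fgfr2* and *Etv5*, whose RefSeq starts are not the GENCODE gene start. Of the 7 windows 4 had a match to GGAAG on either strand, against 64.1% of all 32851 windows of this length. The CArG box, the element that SRF binds, had 0 matches in the 7 windows, and 1.47% of all windows hold one. These are letter matches in a short window and say nothing about binding.

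Cell type markers also differed between the dissections. Their counts are read against the 17.8% of all genes tested that were higher in the FNP and the 11.9% higher in the mandible. The FNP had more of all 10 markers of forebrain and olfactory placode, with a summed level of 145 to 238 TPM against 16.5 to 37.4 TPM in the mandible, and so were 11 of 12 neuronal markers (229 to 333 against 61.2 to 118 TPM). Of 16 markers of surface ectoderm and oral or nasal epithelium, the FNP was above for 8 and the mandible for 5, with a summed level of 442 to 546 TPM in the FNP and 326 to 382 TPM in the mandible. Neural crest mesenchyme markers summed to 1662 to 2445 TPM in the FNP and 1603 to 2047 TPM in the mandible, with the FNP above for 4 of 8 and the mandible for 3. Skeletal muscle went the other way, with 5 of 6 markers tested higher in the mandible and a summed level of 15.6 to 80.5 TPM there against 2.28 to 6.81 TPM in the FNP. Of 8 macrophage markers tested 3 were higher in the FNP, with a summed level of 17.91 to 29.99 against 15.3 to 21.3 TPM. No marker of these lists was at 0 in all libraries of a tissue. Their part in the differences of the 10 genes was not tested, and in bulk tissue fewer cells of a type and less RNA per cell cannot be told apart.

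Other genes of the pathway, from lists chosen with earlier results of these data known, differed by role. Of 20 other FGF ligands 10 passed the filter on low values, of which the FNP had more of 7 and the mandible more of 2. Of all genes tested 17.8% and 11.9% went those ways. *Fgf17*, a close relative of *Fgf8*, stood at 6.02 TPM or more in every FNP library and at 0.179 to 0.712 TPM in the mandible, a log2 difference of -4.28 (SE 0.233, limma adjusted p = 2.59e-10). *Fgf5* went the other way, at 0.101 to 0.326 TPM in the FNP and 1.82 to 3.44 TPM in the mandible (3.47, SE 0.194, limma adjusted p = 3.52e-10). These ranges were far apart, yet all levels of *Fgf5* were below those of *Fgf8* in the same tissue.

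Among the rest of the ligands, *Fgf16* stood at 0.898 to 1.96 TPM in the FNP and 0 to 0.119 TPM in the mandible, so that its fitted difference depends on the pseudocount. *Fgf9*, a ligand of epithelial origin in many organs, was at 9.01 ± 1.06 TPM in the FNP and 4.35 ± 0.622 TPM in the mandible (SD, n = 8; log2 difference -1.05, limma adjusted p = 3.15e-08). *Fgf12*, whose product stays inside the cell, and *Fgf15* were higher in the FNP too, by -3.06 and -2.24 on the log2 scale of mandible minus FNP. Their mandible levels were low, at 0.0992 to 1.17 TPM for *Fgf12* and 0.386 to 1.54 TPM for *Fgf15*. *Fgf15* had 1 control FNP library at 13.8 TPM, with the other 7 FNP libraries lower. Of 2 other receptor genes tested, *Fgfrl1*, which encodes a receptor without a kinase domain, was higher in the mandible at 53.2 ± 3.77 against 31.7 ± 2.55 TPM (log2 difference 0.75, limma adjusted p = 1.35e-08). *Fgfr3* stood at 6.05 ± 1.97 TPM in the FNP and 6.48 ± 0.934 TPM in the mandible and did not pass.

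Heparan sulphate genes and other extracellular partners were split, with 7 of 20 tested above in the mandible and 6 in the FNP. *Gpc3*, a glypican that carries heparan sulphate at the cell surface, was higher in the mandible (900 ± 54.0 against 408 ± 36.8 TPM, log2 difference 1.15, limma adjusted p = 4.49e-14), and *Sulf1*, an extracellular enzyme that trims sulphate from these chains, higher in the FNP (log2 difference -0.75, limma adjusted p = 2.08e-07). The FLRT genes, whose products bind FGF receptors, differed in direction, with *Flrt3* higher in the mandible (0.57) and *Flrt2* (-0.75) and *Flrt1* (-1.16) higher in the FNP. *Sulf2*, a relative of *Sulf1*, was slightly higher in the mandible (0.18).

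Of the 28 genes of the kinase cascade the mandible was above for 8 and the FNP for 1, where 11.9% and 17.8% of all genes went those ways, and the median log2 difference was 0.00 with 15 genes positive and 13 negative. The kinase gene *Rps6ka3*, whose product is phosphorylated by ERK, had the largest of these differences (0.66, limma adjusted p = 2.72e-07), and the adaptor genes *Shc1*, *Gab2* and *Gab1*, the phospholipase gene *Plcg1* and the small GTPase gene *Nras* lay between -0.29 and 0.30. Other feedback inhibitors and ERK response genes had the FNP above for 12 of 17 and the mandible for 1, with a median of -0.42. *Il17rd*, which encodes the feedback inhibitor Sef, stood at 49.0 ± 4.43 TPM in the FNP and 20.7 ± 2.51 TPM in the mandible (-1.24, SE 0.0652, limma adjusted p = 1.58e-10). The phosphatase genes *Dusp4* (-1.36) and *Dusp5* (-1.22), the third ETS gene of the *Etv4* group, *Etv1* (-0.84), and *Phlda1* (-0.86) were higher in the FNP as well. *Ccnd1*, which encodes cyclin D1 and responds to many signals, was the exception at 133 ± 11.7 TPM in the FNP and 213 ± 25.3 TPM in the mandible (0.68, limma adjusted p = 1.55e-06).

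**Figure D3:**
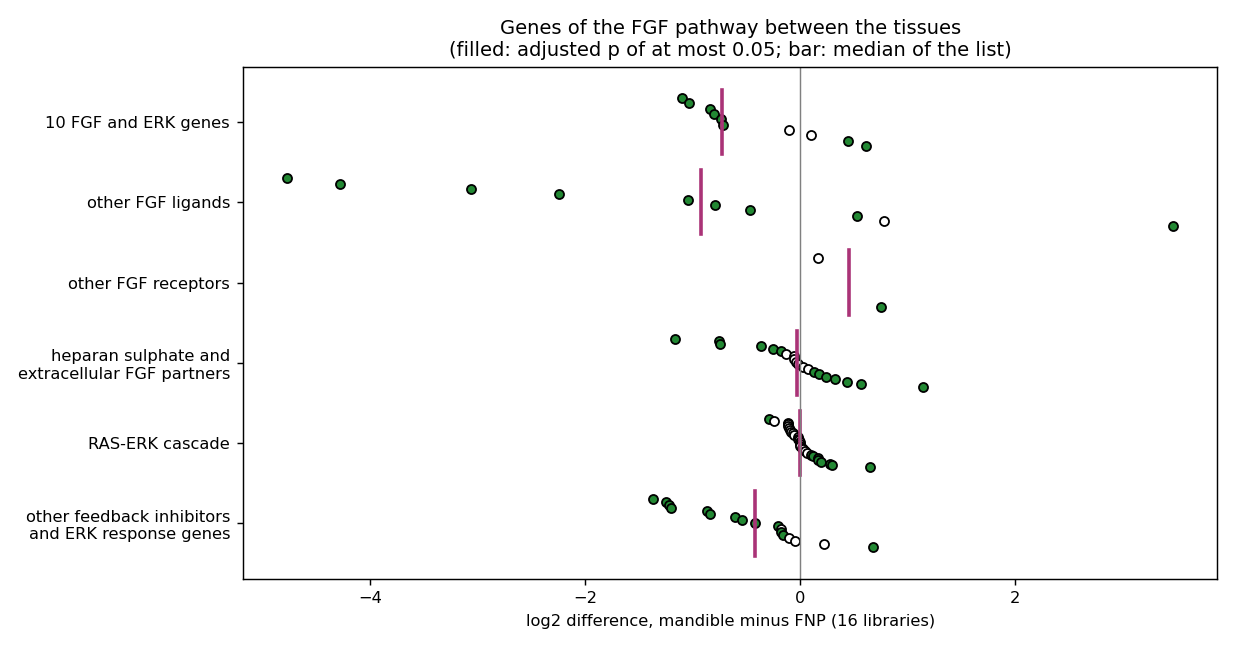
Log2 difference between mandible and FNP (x axis, 16 libraries) for each gene tested of the 10 FGF and ERK genes and of 5 lists of pathway genes; filled points passed at an adjusted p of at most 0.05 and bars mark the median of each list. The feedback genes lie mostly below 0 (median -0.42) and the RAS-ERK cascade around 0 (median 0.00).

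The comparison of mutants with controls asked whether loss of *Srf* in the neural crest altered the ligands, the receptors or the genes that report ERK activity. None of the 10 genes passed the test in either tissue or in both together. The count was 0 of 10 in the joint fit, where 1.33% of 14630 genes passed, 0 of 10 in the FNP, where 0.106% of 14197 passed, and 0 of 10 in the mandible, where 0.1% of 14004 passed (limma, adjusted over all genes, with 4 embryos of either genotype). Without adjustment, limma put 3 of the 10 genes under 0.05 in the joint fit, *Fgf8*, *Spry4* and *Dusp6*, against 17.4% of all genes, 0 in the FNP against 13.7%, and the same 3 in the mandible against 7.20%. Control and mutant TPM overlapped for all 10 genes in both tissues, where 3.42% of genes in the FNP and 2.37% in the mandible had no overlap. At these group sizes a miss does not show that the levels were equal, and the intervals are given for that reason. The joint fit takes both libraries of an embryo as independent, though genotype varies only between embryos, so its intervals may be too narrow. With the tissues averaged per embryo 20 of 14630 genes passed in place of 195, and 0 of the 10.

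*Fgf8* had the largest estimate. In the FNP the controls stood at 38.0, 49.5, 29.9 and 19.8 TPM (embryos 1, 2, 7 and 8) and the mutants at 21.8, 32.4, 30.8 and 27.0 TPM (embryos 3, 4, 5 and 6). In the mandible the controls stood at 24.4, 25.6, 10.3 and 12.8 TPM and the mutants at 8.08, 15.9, 20.9 and 9.17 TPM. Within the first litter every mutant lay below both controls in either tissue, and in the second litter the single mutant lay between the controls in the FNP and below both in the mandible. This order within litters was looked at after the values were seen, and its share over all genes was not counted. The joint log2 difference, mutant minus control, was -0.50 (95% CI -0.91 to -0.09, limma adjusted p = 0.202). Leaving out each embryo in turn moved it between -0.73 and -0.29, and its adjusted p ranged from 0.103 to 0.828 over all 18 alternatives.

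*Spry4* stood at 7.11, 8.14, 8.44 and 8.34 TPM in control mandibles and at 6.85, 5.54, 6.36 and 7.47 TPM in mutant mandibles. Only embryo 6, a mutant of the second litter, lay above the lowest control, and within each litter every mutant mandible was below every control. Here too the order within litters was looked at after the values were seen, with no share over all genes counted. In the FNP the controls stood at 15.7, 17.0, 16.4 and 13.6 TPM and the mutants at 15.0, 15.1, 16.7 and 14.6 TPM, which overlap. The log2 difference was -0.26 in the mandible (95% CI -0.46 to -0.06, limma adjusted p = 0.661), -0.08 in the FNP (95% CI -0.25 to 0.09, limma adjusted p = 0.667) and -0.17 in the joint fit (limma adjusted p = 0.251). The difference between the tissues in this effect was -0.25 (95% CI -0.54 to 0.03, limma adjusted p = 0.999).

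*Dusp6* was at 172, 170, 103 and 101 TPM in control FNPs and at 126, 163, 156 and 99.6 TPM in mutant FNPs. The mandible controls had 97.9, 91.5, 70.4 and 75.4 TPM and the mandible mutants 82.6, 76.5, 78.9 and 74.2 TPM. The embryos of the second litter, 2 controls and 1 mutant, were the low ones in either tissue. Its joint log2 difference was -0.16 (95% CI -0.32 to -0.01, limma adjusted p = 0.272). Leaving out each embryo in turn moved the joint difference of *Spry4* between -0.20 and -0.12 and that of *Dusp6* between -0.25 and -0.12. *Fgf10* had a joint difference of 0.23 (95% CI -0.06 to 0.51, limma adjusted p = 0.419), and 0.11 to 0.29 when each embryo was left out in turn, the lowest without embryo 3. For *Fgfr1*, *Fgfr2*, *Spry1*, *Spry2*, *Etv4* and *Etv5* the joint estimates lay between -0.06 and 0.06, with 95% intervals that stayed within -0.22 and 0.23. None of the 10 genes, and 0 of 14630, differed between the tissues in the effect of genotype (limma interaction, 638 genes at an unadjusted p under 0.05).

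In the 5 lists of pathway genes 0 passed between genotypes in any of the 3 fits: 0 of 10 other ligands, 0 of 2 receptors, 0 of 20 heparan sulphate and extracellular genes, 0 of 28 cascade genes and 0 of 17 feedback and response genes in the joint fit. Their median joint differences were 0.32, 0.03, 0.07, 0.02 and 0.00 on the log2 scale in the same order, against 0.00 over all genes tested and 0.01 over the 10 genes. Of the cell type markers 1 passed in the joint fit, where 1.33% of all genes passed, and 0 passed in either tissue alone. It was the macrophage gene *C1qa*, higher in mutants (0.75, SE 0.174, limma adjusted p = 0.0442), in a fit that takes both libraries of an embryo as independent. Of the 8 macrophage markers tested there, 6 had positive and 2 negative estimates. Macrophage markers summed to 24.46 to 29.99 TPM in mutant FNPs and 17.9 to 26.8 TPM in control FNPs, and to 18.4 to 21.3 against 15.3 to 18.7 TPM in the mandible. Endothelial markers summed to 169 to 170 TPM in mutant FNPs and 145 to 158 TPM in control FNPs, without overlap, and to 148 to 172 against 142 to 162 TPM in the mandible, while none of the 9 passed. Of single genes 3.42% had no overlap in the FNP, and the sums of the other lists overlapped in both tissues. Erythroid (red blood cell) markers summed to 12450 to 22813 TPM in mutant FNPs and 11305 to 13884 TPM in control FNPs. All 8 had positive estimates there (median 0.44), and in the mandible 3 were positive and 5 negative (median -0.10), with 0 called. The 6 muscle markers tested had a median joint difference of 0.60, with 5 positive and 0 called. The part of these cell types in the genotype estimates was not tested.

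**Figure D4:**
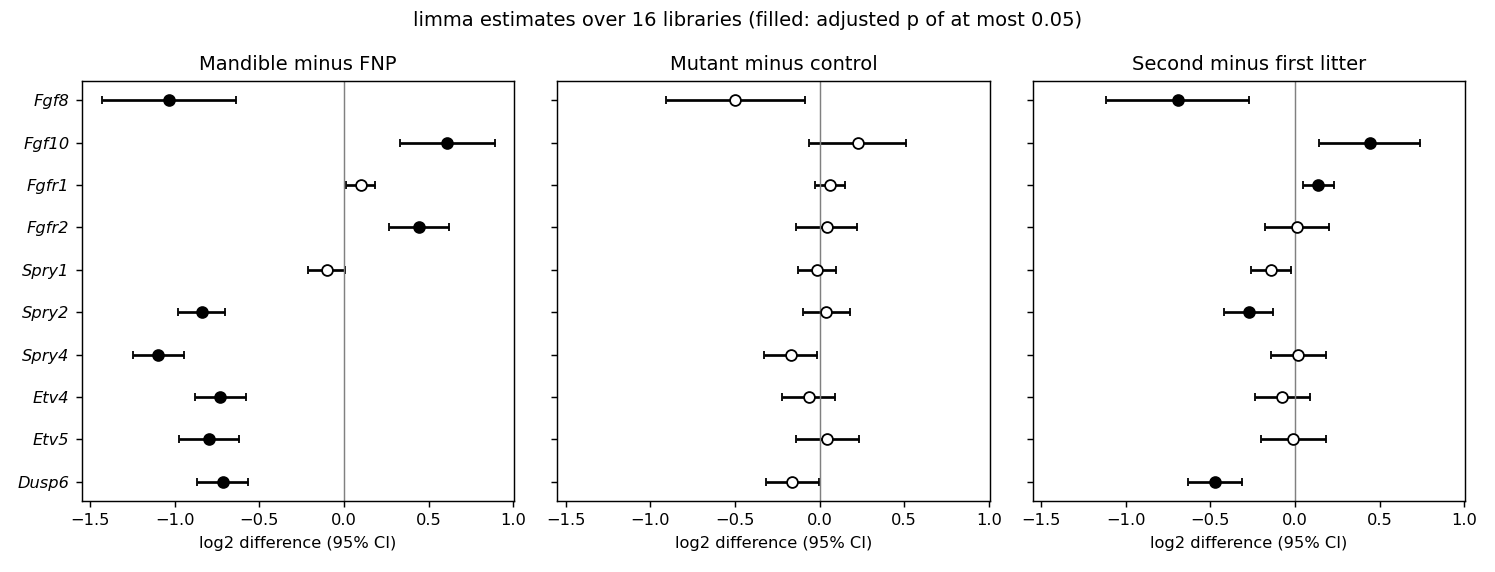
Log2 differences with 95% confidence intervals from the limma fit over 16 libraries for the 10 genes, between tissues, genotypes and litters; filled points passed at an adjusted p of at most 0.05. Filled points number 8 for tissue, 0 for genotype and 5 for litter.

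Litter was a covariate in the study's model. In the second litter *Dusp6*, *Spry2* and *Fgf8* were lower and *Fgf10* and *Fgfr1* higher. The count was 5 of 10, with 3 lower and 2 higher, against 26.1% of all genes tested, 15.2% lower and 10.9% higher (limma, Benjamini-Hochberg adjusted p of at most 0.05). With the tissues averaged per embryo 2 of the 5 remained, *Dusp6* and *Spry2*. The second litter held 1 mutant and 2 controls and the first 3 mutants and 2 controls, so both genotypes occurred in both litters but in unequal shares. What else set the litters apart, such as day of collection or exact age, cannot be told apart from litter here.

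*Dusp6* showed the clearest difference between litters. In the FNP the first litter stood at 172, 170, 126, 163 and 156 TPM (embryos 1 to 5) and the second at 99.6, 103 and 101 TPM (embryos 6 to 8). In the mandible the first litter stood at 97.9, 91.5, 82.6, 76.5 and 78.9 TPM and the second at 74.2, 70.4 and 75.4 TPM. The litters did not overlap in either tissue, as for 14.2% of genes in the FNP (7.44% with the second litter below) and 13.9% in the mandible (8.17% below). The log2 difference, second minus first litter, was -0.47 over both tissues (SE 0.0764, limma adjusted p = 0.000471). It was -0.68 in the FNP and -0.26 in the mandible when each was fitted alone, a split made after seeing the data, and the mandible value did not pass (adjusted p = 0.0676). The difference between these was 0.42 (SE 0.109) and did not pass (limma adjusted p = 0.637), nor did any of the 14630 genes, but it passed without embryo 3 (0.49, adjusted p = 0.0256).

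*Spry2* was at 47.3, 51.3, 44.3, 58.6 and 50.1 TPM in FNPs of the first litter and 40.8, 45.3 and 34.4 TPM in those of the second. Its mandible levels were 25.8, 26.3, 28.5, 30.1 and 25.3 TPM in the first litter and 23.2, 21.2 and 25.0 TPM in the second. The litters overlapped in the FNP and not in the mandible, and the log2 difference was -0.27 (SE 0.0688, limma adjusted p = 0.00829). That call was lost without embryo 6 (-0.26, adjusted p = 0.0727).

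*Fgf8* fell by 0.69 on the log2 scale in the second litter (SE 0.201, limma adjusted p = 0.0181), with overlap in both tissues because embryo 3 of the first litter had 21.8 TPM in its FNP and 8.08 TPM in its mandible. *Fgf10* rose by 0.44 (SE 0.141, limma adjusted p = 0.0297) and *Fgfr1* by 0.14 (SE 0.0434, limma adjusted p = 0.0273), again with overlap. For these genes embryo 3 resembled the second litter, with 8.14 TPM of *Fgf10* and 149 TPM of *Fgfr1* in its FNP. Without embryo 1, 2, 7 or 8 none of the 3 calls held, with adjusted p between 0.0568 and 0.132. The call of *Fgf10* was also lost without embryo 4, 5 or 6 (limma adjusted p = 0.0509, 0.0554 and 0.0744) and that of *Fgfr1* without embryo 5 (0.0566). *Spry1* missed the threshold (-0.14, limma adjusted p = 0.0655), and *Spry4*, *Etv4*, *Etv5* and *Fgfr2* had differences between -0.07 and 0.02, with 95% intervals within -0.24 and 0.20.

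The other pathway genes are read against the 26.1% of all genes that passed between litters, 15.2% lower and 10.9% higher. Of 17 feedback and response genes 5 were lower and 2 higher in the second litter, with *Bhlhe40* (-1.45), *Dusp5* (-1.10), *Dusp9* (-0.72) and *Dusp1* (-0.29) the 4 of smallest adjusted p (limma adjusted p = 0.000176, 0.000304, 0.000206 and 0.00229). *Bhlhe40* and *Dusp1* also respond to stress and to light or hormones in many tissues. Of the 28 cascade genes 5 were lower and 0 higher, where 15.2% and 10.9% of all genes went those ways. The lower ones included the kinase genes *Map2k1* (-0.19) and *Rps6ka2* (-0.23), the GTPase gene *Hras* (-0.23) and the adaptor gene *Gab2* (-0.30). Of 10 ligand genes 2, *Fgf11* (0.73) and *Fgf2* (0.72), were higher and 0 lower, where 10.9% and 15.2% of all genes went those ways. Of the 20 extracellular partners 5 were higher, such as *Sulf1* (0.40), *Sdc4* (0.24) and *Gpc6* (0.21), and *Gpc3* was lower (-0.20). Cell type markers are read against the same shares of all genes. Of 10 forebrain and placode markers 3 were lower in the second litter, with a summed level of 16.5 to 22.5 TPM in its mandibles against 23.9 to 37.4 TPM in the first litter and 145 to 230 against 197 to 238 TPM in the FNP. Of 16 epithelial markers 3 were higher and 4 lower, of 8 neural crest mesenchyme markers 3 were higher, and of 6 muscle markers tested 2 were higher. Of 9 endothelial markers 2 were lower, and of 8 macrophage and 8 erythroid markers tested 1 each was lower. Calls numbered 0 of 12 for neurons, 0 of 7 for mandibular identity and 0 of 6 for frontonasal identity. Their part in the litter differences was not tested.

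How the 10 genes varied together among libraries of a tissue is given as a description, over 16 libraries from 8 embryos with the mean of each tissue removed; the libraries share embryos and litters, and no test was made. *Fgf10* and *Fgfr1* varied together (Pearson r = 0.84) and opposite to *Fgf8* (-0.61 and -0.84) and *Dusp6* (-0.83 and -0.75). *Etv4* varied with *Etv5* (0.71) and *Spry2* with *Dusp6* (0.71), while *Spry2* and *Spry4* gave 0.66 in the FNP and -0.65 in the mandible (-0.05 over both). *Fgfr2* ran opposite to *Etv5* in the FNP (-0.88) and in the mandible (-0.80). *Fgf8* with *Etv5* gave 0.88 in the 8 FNP libraries and -0.75 in the 8 mandible libraries, and with *Etv4* 0.87 and -0.44.

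Among 13514 other genes with a mean of at least 1 TPM, the gene with the pattern most like a member was *Thy1* for *Fgf10* (Pearson r = 0.96), *Fbln1* for *Fgfr1* (0.97) and *Dclk1* for *Fgfr2* (0.85). For the Sprouty genes these were *Gm3379* for *Spry1* (0.87), *Jmjd6* for *Spry2* (0.87) and *Noc3l* for *Spry4* (0.84). For the ETS factors they were *Thap11* for *Etv4* (0.82) and *Ehd3* for *Etv5* (0.85). *Dusp6* was most like *Cdk7* (0.94), *E2f4* (0.93) and *Ppat* (0.93). The highest r out of so many genes is large in any set of 16 libraries.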

How the data were processed

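RNA was sequenced by the authors as paired polyA libraries of the FNP and mandible of 8 embryos at E11.5. Transcripts were quantified with Salmon 1.5.0 against mm10 and summed to genes in sleuth 0.30.0-4, as the paper and the submitters' processing notes give it. The deposited table of gene values holds a signal, the authors' estimated counts scaled by a size factor of each library (15451 genes); whole reads could not be recovered, so no count model was used. The deposited TPM table (35639 genes) was also scaled by the authors as a signal and sums to 0.921 M to 1.07 M per library. The authors' deposited comparison tables (effect size b, its standard error, p-values, q-values and fold changes) were not used. Litter comes from the authors' deposited design table. Of the value columns 0 lacked a sample.

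Genes reaching 10 in 4 or more libraries were tested on log2(value + 0.5) by limma (3.58.1, R 4.3.3) using a variance trend and Benjamini-Hochberg adjustment over all genes tested; a gene was called at an adjusted p of at most 0.05. On this scale the change of low genes is understated. Genotype was fitted with litter, and tissue in the joint fit, and tissue with litter and genotype. The 10 genes and all lists were chosen with earlier results of these data known. The genes named are the 10, from each list the called genes of smallest adjusted p (up to 6 between tissues and 4 otherwise), and the genes most like each of the 10, of which that for *Fgf8* is not reported here; the spread of *Fgf15*, *C1qa* and the sequences printed were chosen after values were seen. The FNP and mandible libraries of an embryo are paired by origin, with correlations of their deviations from 0.0993 to 0.234. For the FNP of embryos 2, 4 and 6 the mandible with the highest correlation was that of embryo 5, 1 and 7. Other pseudocounts, filters, scalings, TPM in place of gene values, left-out embryos, control subsets, embryo blocks and per-embryo averages were tried, and litter within each tissue and the interaction of litter and tissue were added after seeing the data. Coordinates are of GRCm38, counted from 1, and upstream sequences of RefSeq GRCm38.p6. Fits were tested on simulated data. Plots used matplotlib 3.10.9 (Python 3.11.15).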

Additional observations from a re-analysis of the deposited data

How the results depend on the processing

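Between the tissues 8 of the 10 genes were called, 7 to 9 over all alternatives and 8 to 9 without 1 embryo each. No member's difference between the tissues changed sign in 18 alternatives, and *Fgf10* lost its call with mutants alone. With the replicate block, which pairs the libraries of an embryo, 9 were called with the embryo as a random or a fixed term, *Fgfr1* being added, and the block changed no other call: 0 for genotype, 0 for the interaction and 5 for litter. Between genotypes the count was 0 under every alternative run, jointly and in each tissue. The count for litter, 5, was 2 to 5 without 1 embryo each, 2 with the tissues averaged per embryo, and 1 in the 8 FNP libraries alone and 0 in the 8 mandible libraries alone (both added after seeing the data). The interaction of litter and tissue called 0, and 0 to 1 without 1 embryo each, the 1 being *Dusp6* without embryo 3. Genes called over the whole table moved more. The joint genotype count, 195, was 91 without a variance trend, 43, 41, 67 and 367 without embryo 1, 2, 4 and 6, 28 without the litter term, 24 against the *Wnt1-Cre* controls alone, 36 against the others alone, 113 with the random block and 20 averaged per embryo. The FNP count, 15, was 28 from TPM, 9 without embryo 1 and 62 from the fit of 16 libraries, and the mandible count, 14, was 7 against the *Wnt1-Cre* controls alone. The tissue count, 4352, was 2506 in controls and 2261 in mutants, and the litter count, 3824, was 2343 and 2329 without embryo 1 and 8, 2379 averaged per embryo, and 1098 and 612 in the FNP and mandible alone. Fewer libraries were fitted in these subsets; for the other settings the cause was not tested.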
